A study of Homo sapiens with 6 samples.

Results

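Metallothioneins are small cytosolic and nuclear proteins, rich in cysteine, whose thiol groups hold zinc and copper and also bind cadmium and other toxic metals. Cells use them to buffer free zinc, to store copper and to scavenge oxidants. Their genes are induced by zinc and cadmium through the zinc finger protein MTF1, which binds metal response elements in their promoters, and several are also induced by glucocorticoids. In breast cancer, metallothionein levels differ widely between tumors and cell lines.

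The genes described here were taken from the deposited table by symbol, as MT1 or MT2 followed by a single letter. The rule found 5 of the 15917 genes listed, which are *MT2A*, *MT1E*, *MT1X*, *MT1A* and *MT1F*. The study silenced *RBMS3*, which encodes an RNA binding protein, in MDA-MB-231, an established human line of basal-like breast cancer. Total RNA was sequenced in 6 libraries, 2 with the control hairpin shCTRL (labelled WT), 2 with the hairpin shRBMS3-B3 (labelled RBMS3 KD1) and 2 with the hairpin shRBMS3-C3 (labelled RBMS3 KD2). Lentivirus carried the hairpins, and puromycin selected the transduced cells, which also carried luciferase; all groups grew in the same serum-containing medium. The value used for each gene is the authors' mean normalized count, a read count corrected for the depth of each library and then averaged over libraries. The table does not say which libraries entered this mean. It carries no spread, so no error, no number of replicates and no test stand beside the levels below, and the depth of each library is unknown. Control and knockdown cells enter the same mean. The only columns that separate them hold the authors' own comparison, which was not used, so no change on *RBMS3* knockdown is given for any gene.

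Over the whole table the mean normalized count ran from 26.7 to 859682, with a median of 364, so a gene below 26.7 is not listed. All 8 markers fixed for the line were listed. *VIM*, the mesenchymal intermediate filament, had a mean normalized count of 69335, and *AXL*, a receptor tyrosine kinase of mesenchymal breast cancer cells, had 35387. The simple epithelial keratins *KRT8* and *KRT18*, which luminal cells also express, had 17802 and 12689. Of 6 luminal or epithelial markers, *ESR1*, *PGR* and *FOXA1* were not listed, and *CDH1*, which encodes E-cadherin, had 31.6. *GATA3* and *EPCAM* had 171 and 107. Of the markers of other cell types, the leukocyte gene *PTPRC* was not listed and the endothelial gene *PECAM1* had 69.0. *RBMS3* itself had a mean normalized count of 272. This pooled level does not check the knockdown.

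The first 30 coding bases of each member are printed from GENCODE release 44, with cysteine codons in capitals, to show the trait that defines the family and how alike its transcripts are.

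*MT2A*: atggatcccaacTGCtccTGCgccgccggt
*MT1E*: atggaccccaacTGCtctTGCgccactggt
*MT1X*: atggaccccaacTGCtccTGCtcgcctgtt
*MT1A*: atggaccccaacTGCtccTGCgccactggt
*MT1F*: atggaccccaacTGCtccTGCgccgctggt

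All 5 stretches place their 2 cysteine codons alike. Between *MT1E* and *MT1A*, 1 of these 30 bases differed, and between *MT2A* and *MT1X*, the pair that differed most, 6 did. Each member's 3-exon coding form has 61 codons before the stop. Of these, 20 encode cysteine (32.8%) and 8 encode lysine, and none encodes an aromatic residue or histidine, counts that were the same in every member. Over the whole coding sequence, base identity ran from 88.7% between *MT1X* and *MT1F* to 94.6% between *MT1E* and *MT1A*. *MT2A* was 92.5% identical to *MT1E*, to *MT1X* and to *MT1A*.

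*MT2A*, which encodes the main type 2 metallothionein, was by far the most abundant member. Its mean normalized count was 7616, at percentile 97.8 of all listed genes. *MT1E*, a type 1 gene, had 1129 and lay at percentile 77.1. *MT1X*, also of type 1, had 199, at percentile 37.0. *MT1A* had 74.6 and *MT1F* 37.9, at percentiles 19.99 and 7.73. The family thus covered the table from near its lower limit to its highest few percent, and 2 of the 5 genes exceeded the median of all genes on the count scale.

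Metallothionein transcripts are short, and a longer transcript gives more reads at the same number of molecules. Levels were therefore compared between genes per kilobase of representative transcript. The representative transcripts of *MT2A*, *MT1X*, *MT1A* and *MT1F* measure 401, 404, 396 and 425 bases, against a median of 2852 bases over the listed genes. That of *MT1E* measures 746 bases. This MANE Select form has 2 exons and keeps the second intron, and the annotated 3-exon form, which has a longer 5′UTR of 377 bases, measures 704. Per kilobase, *MT2A* had a level of 18993, which ranked 99 among the 15829 genes with a length. *MT1E* reached 1513 per kilobase, at percentile 93.0. *MT1X* reached 492 per kilobase, at percentile 79.8, in place of percentile 37.0 on the count scale. *MT1A* and *MT1F* had 188 and 89.2 per kilobase, at percentiles 58.3 and 39.0. On this scale 4 members lay above the median of 137 per kilobase and *MT1F* lay below it.

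**Figure D1:**
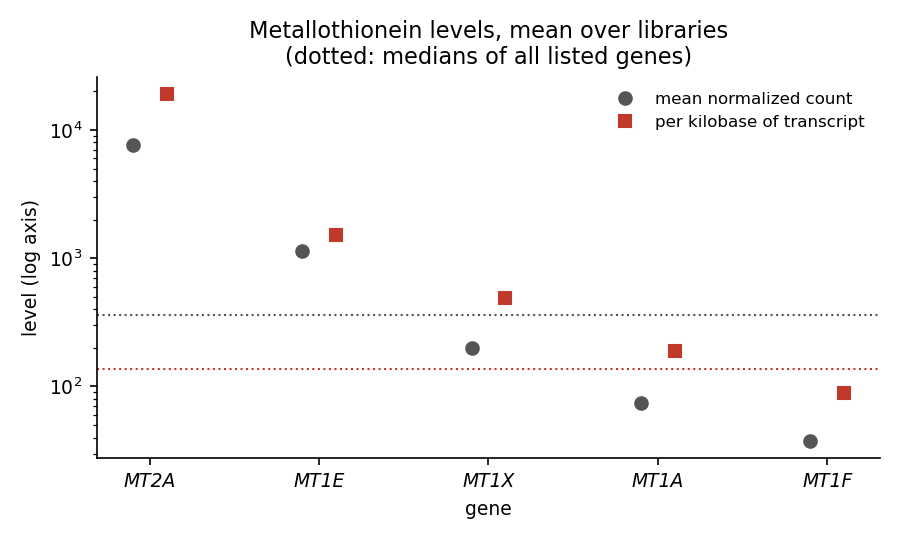
Level of each metallothionein gene on a log axis, as the authors' mean normalized count (circles) and per kilobase of representative transcript (squares); each point is 1 pooled value without error, and dotted lines mark the medians of all listed genes, 364 and 137. *MT2A* stands highest on both scales, and *MT1X* and *MT1A* are above the median only per kilobase.

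The order of the levels was *MT2A*, *MT1E*, *MT1X*, *MT1A* and *MT1F* on both scales. Per kilobase, *MT2A* was 12.5-fold higher than *MT1E*, and *MT1E* was 3.08-fold higher than *MT1X*. These folds depend on the length taken for *MT1E*, and the ratios of the mean normalized counts were 6.75 and 5.68. Further down, *MT1X* was 2.61-fold higher than *MT1A* per kilobase, a direction that turned when the longest annotated transcript of each gene gave the length. *MT1A* was 2.11-fold higher than *MT1F* per kilobase. The end members of the order differed 213-fold. With no spread between libraries, neighbors in this order could not be tested against each other. *MT2A* alone made up 89.3% of the summed level of the 5 genes per kilobase and 84.1% of their summed mean normalized count. *MT1E* made up 7.11% per kilobase and 12.5% by count, and the other 3 genes together held the rest. The 5 genes summed to a mean normalized count of 9056, which is 0.0411% of the sum over all listed genes.

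**Figure D2:**
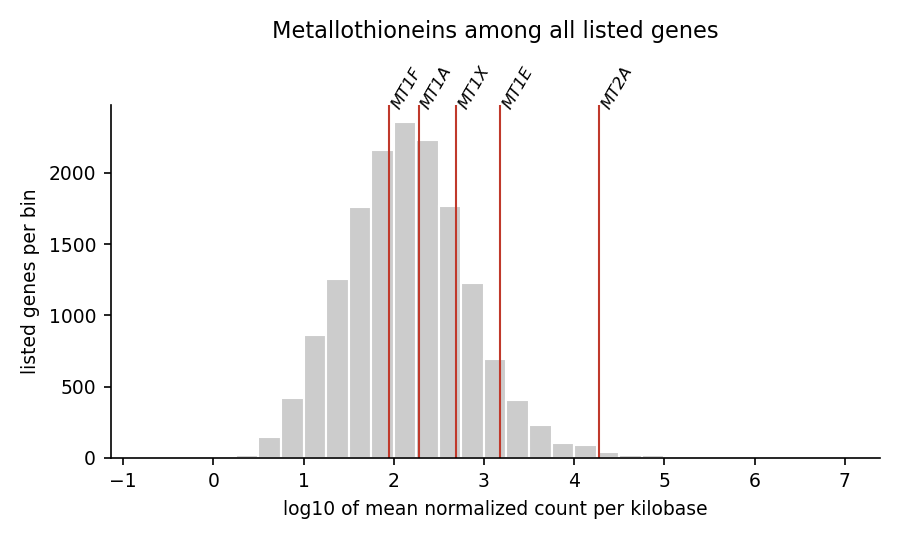
Distribution of all 15829 listed genes with a transcript length over the log10 of mean normalized count per kilobase (gray bars, number of genes per bin), with a red line at each metallothionein gene. *MT1F* and *MT1A* lie in the body of the distribution, and *MT2A* lies in its upper tail, at rank 99.

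The members all lie in one cluster on the long arm of chromosome 16. In GENCODE release 44 on GRCh38, *MT2A* (ENSG00000125148) occupies chr16:56608584-56609497 and *MT1E* (ENSG00000169715) chr16:56625475-56627112. *MT1A* (ENSG00000205362) follows at chr16:56638666-56640087 and *MT1F* (ENSG00000198417) at chr16:56657731-56660698. *MT1X* (ENSG00000187193) ends the cluster at chr16:56682470-56684196. All are on the plus strand, and 75.6 kb separate the start of the first from the end of the last. The annotation has 10 genes of this naming form, of which 9 are protein coding. The protein-coding genes *MT1B*, *MT1G*, *MT1H* and *MT1M* and the pseudogene *MT1L* were not listed. *MT3*, the neuronal growth inhibitory factor, and *MT4*, a gene of stratified epithelia, lie before *MT2A* and were not listed either. A gene that is not listed has no value here, and its level is not known.

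**Figure D3:**
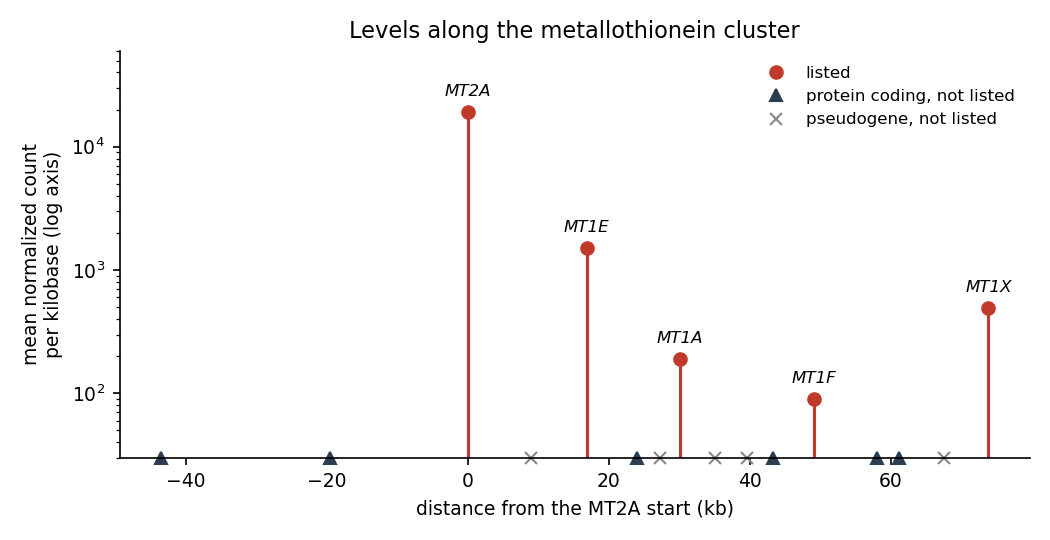
Mean normalized count per kilobase (log axis) of the listed metallothionein genes along the cluster, placed by distance in kilobases from the *MT2A* start; triangles and crosses on the base line mark protein-coding genes and pseudogenes that were not listed and carry no value. Between *MT2A* and *MT1F* the level per kilobase is lower at each successive listed gene, from 18993 to 89.2, and *MT1X* at the far end is at 492.

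Genes that were not listed lie before the first and between all successive listed genes of the cluster. The nearest listed protein-coding genes before *MT2A* and after *MT1X* were *BBS2*, which encodes a subunit of the ciliary BBSome, and *NUP93*, which encodes a nuclear pore scaffold protein. They lie 25.9 kb before the *MT2A* start and 45.9 kb after the *MT1X* end and had 93.8 and 154 per kilobase, at percentiles 40.2 and 53.0. The next genes out, *OGFOD1* and the endoplasmic reticulum stress gene *HERPUD1*, had 182 and 197 per kilobase. *MT2A*, *MT1E* and *MT1X* were each above all 4 of these neighbors. *MT1A*, with 188 per kilobase, was below *HERPUD1* and above the others, and *MT1F*, with 89.2, was below all 4.

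Because of the near-identity of the family, part of the reads of a member can be assigned to another gene. To measure this, the representative transcript of each member was divided into all words of 31 bases, and each word was sought in every other gene of GENCODE release 44. Of the words of *MT2A*, 31.5% also occurred in another gene. The share was 22.6% for *MT1E*, 18.9% for *MT1A* and 13.9% for *MT1F*. It was highest for *MT1X*, at 54.0%, where 36.4% of the words were shared with ENSG00000259827, a long noncoding RNA on the same strand that overlaps the gene and was not listed. Words shared with another listed member made up 19.0% for *MT1X*, 14.02% for *MT2A*, 12.6% for *MT1A*, 8.35% for *MT1F* and 2.93% for *MT1E*. This order holds for the representative transcripts. Over all annotated transcripts of each gene the share was 12.6% for *MT1A*, 5.79% for *MT2A*, 4.60% for *MT1X*, 2.50% for *MT1E* and 2.05% for *MT1F*. Among the 5 members, the pair with most in common was *MT2A* and *MT1X*, with 13.5% of the *MT2A* words of the representative transcript. *MT1X* also shared 17.6% of its words with the unlisted gene *MT1G*, and *MT1E* shared 12.7% with the unlisted *MT1M*.

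**Figure D4:**
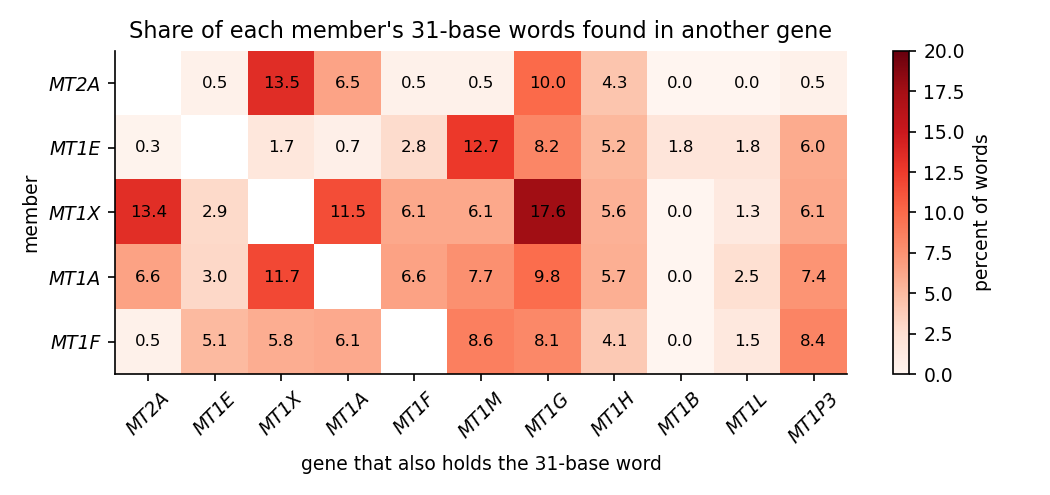
Percent of the 31-base words of each listed member (rows) that also occur in another metallothionein gene (columns); blank cells are the gene itself. The highest share, 17.6%, is that of *MT1X* with *MT1G*, while *MT1E* holds 0.539% of the *MT2A* words.

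With words of 75 bases, the read length of the study, no word of a representative transcript was found in another of the 5 members. Words of 75 bases from the other annotated transcripts were not sought. *MT1X* still shared 36.1% of such words with other genes, and *MT1E* shared 1.64%. All words of 75 bases in the representative transcripts of *MT2A*, *MT1A* and *MT1F* were their own. The level of *MT1X* is the most uncertain of the 5 by this measure, as reads in its shared stretches could have been assigned to another gene. How many reads were divided in this way was not tested.

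The pseudogene *MT1P3* on chromosome 20 was the other listed gene of the 11 metallothionein names outside the rule. It had a mean normalized count of 33.0 over an annotated length of 177 bases. Of its words of 31 bases, 74.8% occurred in other genes, with 40.1% in the pseudogene *MT1JP* and 33.3% in *MT1E*. *MT1P3* also lies opposite *MMP24OS* on the other strand. Its value is uncertain because of the shared words and because its count is near the lowest listed, 26.7.

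The known inducible element of these promoters was sought in the RefSeq promoter sequences (GRCh38.p14), which run from 250 bases before to 50 bases after the gene start. Of the members, 2 had an entry, *MT2A* and *MT1X*. *MT1E*, *MT1A* and *MT1F* had none. The metal response element core was searched as TGCACNC or TGCGCNC on both strands, with overlapping matches counted. It is shown in capitals with up to 8 flanking bases on each side, all read on the strand of the gene. Positions are counted from the gene start, where -1 is the last base before it. From each promoter 3 windows are shown, to set the most abundant member beside one of lower level. They are not the closest pairs by position, as the TGCGCNC cores from base -153 of *MT2A* and -150 of *MT1X* are not printed.

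*MT2A*, chr16:56608522-56608544, core from base -54: ggggctttTGCACTCgtcccggc
*MT2A*, chr16:56608488-56608510, core from base -88 on the opposite strand: cgcggggcGTGTGCAggcagcgc
*MT2A*, chr16:56608437-56608459, core from base -139: cggcccagTGCGCGCggccgggt
*MT1X*, chr16:56682409-56682431, core from base -53: ggggcctcTGCGCCCggccctct
*MT1X*, chr16:56682384-56682406, core from base -78 on the opposite strand: gcaggggcGGGTGCAaggacgag
*MT1X*, chr16:56682340-56682362, core from base -122: cgggttgcTGCACCCggcccagg

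The *MT2A* sequence held 8 cores in all, of which 7 lie before the start. The *MT1X* sequence held 4, all before the start. At least 1 core was present in 29.6% of the 35116 promoters of the same length, 4 or more in 0.601% and 8 or more in 0.0199%. These promoters were not matched to the members for G+C content, which affects how often such words occur. Both promoters also held TATAAA, present on the gene strand in 7.33% of all promoters. These matches are letters in a window and not measured binding sites, and 2 promoters do not allow a relation with level to be examined.

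The study is concerned with RBMS3 binding to an AUA element in the untranslated end of transcripts. The element was searched as its 12 possible words of 7 bases in the 3′UTR of each member's 3-exon form, which measures 137 to 147 bases with 58.7% to 67.4% A+U. *MT1X* held ATATAAA, which begins 42 bases after the stop codon. *MT2A* and *MT1A* each held TAATAAA, which begins 122 and 117 bases after the stop codon and contains the polyadenylation signal AATAAA. *MT1E* and *MT1F* held no match. The signal AATAAA, taken alone, was present in the 3′UTR of every member except *MT1F*. Of 12351 listed genes with a 3′UTR, 84.8% had at least 1 match, and of the metallothioneins 3 of 5 did. These genes were not matched to the members for 3′UTR length, and a longer 3′UTR has more places for a match. The shares therefore do not show whether the element is scarce in this family.

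The genes that sense and move metals in the cell were set beside the metallothioneins per kilobase. *MTF1*, the metal-sensing transcription factor, had 75.5 per kilobase, at percentile 34.7. *NR3C1*, the glucocorticoid receptor, had 279 per kilobase, at percentile 68.0. Both are regulators with long transcripts, and on the count scale they had 599 and 1888.

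Of 10 zinc exporters of the SLC30A family, 6 were listed, with 20.8 to 155 per kilobase and a median of 122. *SLC30A1*, the exporter of the plasma membrane and itself a target of MTF1, had 146 per kilobase. *SLC30A5*, *SLC30A7* and *SLC30A9* had 152, 98.2 and 155, and the lowest were *SLC30A6* with 57.4 and *SLC30A4* with 20.8 per kilobase. Of 14 zinc importers of the SLC39A family, 11 were listed, with a median of 348 per kilobase, and 9 exceeded the median of all genes. *SLC39A7*, which releases zinc from the endoplasmic reticulum and Golgi, was the highest with 1308 per kilobase. *SLC39A1* had 988 and *SLC39A14*, which also carries iron and manganese, had 423 per kilobase. *SLC39A8* had 242 and *SLC39A10* had 98.6, and *SLC39A11* was the lowest with 79.0 per kilobase.

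All 12 copper handling genes were listed, and 11 had a transcript length. *ATOX1*, the copper chaperone of the secretory pathway, had 1419 per kilobase, the highest of the transport and chaperone genes. *COX17*, the copper chaperone of cytochrome c oxidase, had 1229 per kilobase, and *SLC31A1*, the copper importer, had 187. The copper-transporting ATPases *ATP7A* and *ATP7B* had 26.7 and 9.84 per kilobase. *SCO2* had no length here and a mean normalized count of 124.

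**Figure D5:**
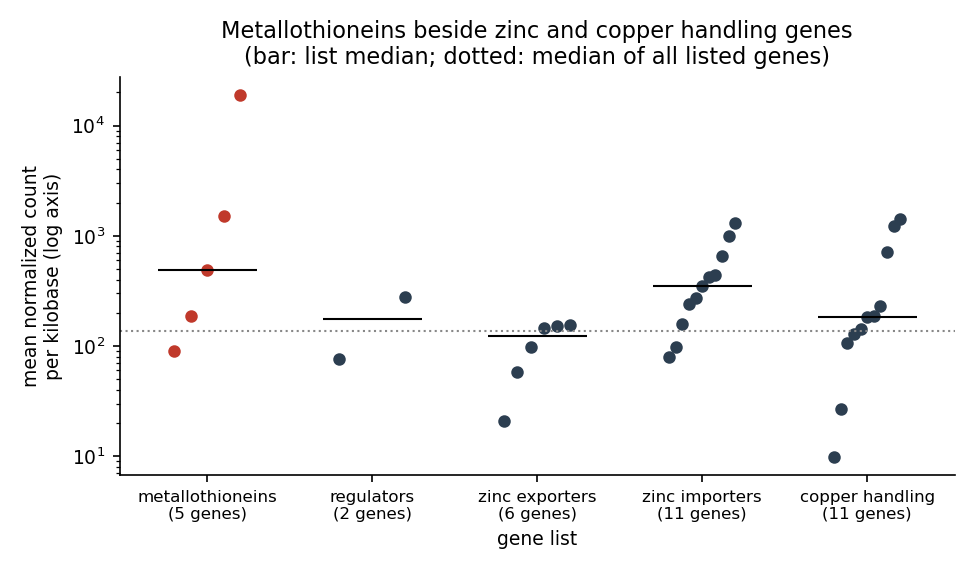
Mean normalized count per kilobase (log axis) of the 5 metallothionein genes, 2 regulators, 6 zinc exporters, 11 zinc importers and 11 copper handling genes; each point is 1 gene, bars mark list medians and the dotted line the median of all listed genes. *MT2A* lies above every other point, and the zinc exporters have the lowest list median, 122.

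Per kilobase, *MT2A* and *MT1E* were above all 28 zinc and copper genes with a length. For *MT1E* the margin was narrow, 1513 against 1419 for *ATOX1*. It has no error and depends on the length taken for *MT1E*. On the same scale *MT1X* was above 22 of them, *MT1A* above 16 and *MT1F* above 5, while their mean normalized counts of 199, 74.6 and 37.9 rest on much shorter transcripts than those of most of these genes. The median of the 5 metallothioneins was that of *MT1X*, 492 per kilobase, against 348 for the importers, 183 for the copper genes and 137 over all listed genes.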

How the data were processed

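Total RNA of MDA-MB-231 cells was sequenced in 6 libraries in 3 groups. Per the labels, the authors used Salmon, DESeq2 and hg38; their versions, the annotation and the filters for this experiment, and the libraries averaged, are not given in the sources used here, though the study's supplement states 2 biological replicates each of knockdown and control cells for its comparison. The authors deposited 1 table, and its signal used here is a mean of counts divided by size factors. Its other 5 value columns hold the authors' comparison of knockdown with control cells (log2 fold change, standard error, statistic, p-value, adjusted p-value) and were not used, so the count test planned for values per library was not run.

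Of the 15917 Ensembl identifiers, 15829 were found in the GRCh38 annotation of GENCODE release 44, which gave lengths and coordinates. The representative transcript was MANE Select, otherwise Ensembl canonical. Percentiles give the share of listed genes at or below a value. Words were compared on the transcript strand. Coding sequences were aligned globally (match 2, mismatch -1, gap opening -5, extension -1). The 3-exon form was the representative transcript, except in *MT1E*. Functions were tested on simulated data. The members and gene lists were chosen with earlier results of these data known. Named genes are all members, other metallothionein names, 2 listed neighbors on each side, *RBMS3*, MTF1 and NR3C1, and zinc and copper genes. Python 3.11.15, pandas 2.3.3, numpy 2.4.6, Biopython 1.88 and matplotlib 3.10.9 were used.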

Additional observations from a re-analysis of the deposited data

How the results depend on the processing

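The share of *MT2A* in the summed level of the members was 89.3% per kilobase. It was 84.1% without division by length and 82.1% with the longest annotated transcript. The coding length of the representative transcript gave 89.9%, with 384 bases for *MT1E* and 186 for each other member. The 3-exon forms have equal coding lengths, and dividing by these leaves the share at 84.1%. Lengths reduced by an assumed fragment of 200 bases gave 91.3%, a setting that was added once results were known. Members above the median of all genes numbered 4, and 2 without division by length; the other 4 alternatives gave 3 to 5. The order of the members held on each scale except with the longest transcript, where *MT1A* came before *MT1X*. Words of the representative transcripts shared with another member fell to 0 at 75 bases in all 5 members, since a longer word needs a longer identical run. With all annotated transcripts these shares fell in 4 members, most in *MT1X* and *MT1F*, from 19.0% to 4.60% and from 8.35% to 2.05%, as more words enter. No paired analysis was possible because the value used is 1 mean per gene and carries no replicate. Leaving out a replicate, another normalization and DESeq2 were not run for the same reason. Unknown depth leaves each level without an error.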
